A study of Drosophila melanogaster with 17 samples.

Results

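The vacuolar proton pump, or V-ATPase, was followed through 20 genes whose symbol in the deposited count tables begins with Vha, out of 14095 gene loci in all. The 20 genes lay at 20 separate loci, and none had to be merged with another entry. They encode subunits A to H of the V1 sector, subunits a, c, c'', d and e of the V0 sector, and the accessory protein VhaM8.9. Reads were sufficient for a test at 17 of the 20 loci, and Vha100-3, Vha16-2 and Vha16-3 were too low to be fitted. Of the 20, Vha100-3 is classed as a testis-type paralogue and the other 19 are not. A further 14 loci listed under computed identifiers are V-ATPase genes by their present names. They are described separately as relatives and are not counted among the members.

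The study is of the fruit fly Drosophila melanogaster, and polyadenylated RNA of dissected adult organs was sequenced in 17 libraries that form 8 groups. Fat body, the insect organ of fat storage and immune secretion, was taken from 50-day-old flies with no treatment (3 libraries), from 5-day-old flies with RNA interference against Lam, here Lam-RNAi (2 libraries), and from 5-day-old flies with no treatment (2 libraries). Midgut, the digestive and absorptive part of the intestine, was taken in the same 3 conditions, with 2 libraries each. Whole gut was taken from 40-day-old and from 5-day-old flies with no treatment, with 2 libraries each, and had no Lam-RNAi group. Untreated 5-day-old samples are called young below, and untreated 40- or 50-day-old samples old. Lam encodes lamin-B, the main filament protein of the nuclear lamina, and the design sets old and Lam-targeted flies against young ones. Sex, strain and driver line are not in the labels, nor is the place where the interference acted.

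V-ATPases are rotary machines that use ATP to move protons into lysosomes, endosomes and secretory vesicles, and in some epithelia out of the cell across the plasma membrane. The cytosolic V1 sector holds the catalytic A subunits and the nucleotide-binding B subunits, a central shaft of D and F, and peripheral stalks of E and G that C and H join to the membrane sector. The membrane V0 sector holds a rotating ring of c and c'' subunits, subunit d that couples the ring to the shaft, subunit e, and the large subunit a, through which the protons pass and whose paralogues help to set where the pump is placed. In insects the pump energizes the apical membrane of gut and Malpighian tubule epithelia, and the copper cells of the midgut use it to acidify the lumen.

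Each library held between 31637135 and 78289614 counts, and an observed count of 0 allows up to 3 counts at 95% confidence, which is 0.0383 to 0.0948 CPM. These floors cover counting error alone. CPM here are counts scaled to the library total, whereas fold changes come from an edgeR fit with TMM scaling factors, so a fold change can differ from the ratio of 2 CPM values. Lam had 15.5 and 16.1 CPM in Lam-RNAi fat body, 41.2, 50.8 and 42.0 CPM in old fat body, and 38.4 and 39.0 CPM in young fat body. It was 2.17-fold lower in Lam-RNAi than in young fat body (log2 fold change -1.12, SE 0.14, adjusted p = 0.00145, edgeR quasi-likelihood test with Benjamini-Hochberg adjustment). Lam had 32.0 and 30.4 CPM in the midgut libraries labelled Lam-RNAi, 32.9 and 31.4 CPM in old midgut, and 28.9 and 32.1 CPM in young midgut, and the change in the libraries labelled Lam-RNAi did not pass (-0.11, adjusted p = 0.173). In whole gut Lam had 30.8 and 28.4 CPM in old flies and 19.5 and 16.7 CPM in young flies (0.21, adjusted p = 0.152). Fat body and midgut markers were highest in the tissues of those labels. The 8 fat body markers summed to between 60947 and 65951 CPM in old and between 120479 and 139924 CPM in Lam-RNAi fat body. In young fat body they summed to between 48499 and 48968 CPM, the lowest of the 3 fat body groups. The 8 midgut markers summed to between 37974 and 47623 CPM in the midgut and whole gut libraries. Malpighian tubule markers summed to between 2183 and 2514 CPM in whole gut, between 124 and 256 CPM in fat body, and at most 51.1 CPM in midgut.

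The pump genes were far more abundant in midgut than in fat body. All 20 members summed to 17922 and 19028 CPM in young midgut, against 3204 and 3226 CPM in young fat body. Of the 17 members tested, 14 were higher in young midgut and 3 were lower, in a comparison in which 69.3% of all loci passed (35% higher and 34.3% lower). The median log2 fold change of the members was 3.20, against -0.02 over all 11128 loci tested. For each subunit the paralogue with the highest mean CPM over all 17 libraries is called the leading paralogue. Gut libraries make up most of that mean, so the direction of the 13 leading paralogues between these tissues was partly fixed by the choice and is given as a description. All 13 were higher in young midgut (median 3.27). They stayed higher under each scaling. The share of all calls that were higher was 50.5% with TMM, 35.3% with upper quartile factors and 31.9% with total counts alone. Bulk RNA cannot tell fewer cells of a type from less RNA per cell, here or in any comparison below.

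The largest ratio among the leading paralogues was that of Vha14 (subunit F of the shaft), with 336 and 354 CPM in young midgut, against 22.4 and 26.6 CPM in young fat body, 19.4-fold higher (log2 fold change 4.27, adjusted p = 2.6e-12). Vha36 (subunit D, the rest of the shaft) followed at 15.1-fold, and Vha68-2 (subunit A) at 12.2-fold. The smallest ratio was that of Vha100-2 (subunit a), with 711 and 804 CPM in young midgut, against 251 and 241 CPM in young fat body, 4.23-fold higher (2.08, SE 0.17, adjusted p = 1.12e-07). The accessory gene VhaM8.9, whose mammalian counterpart is known as the prorenin receptor, was 5.79-fold higher in young midgut. The 3 genes that went the other way have a paralogue with a higher mean over all libraries. Vha100-1, a subunit a gene known for its role at synapses, had 76.9 and 84.7 CPM in young midgut, against 262 and 264 CPM in young fat body, 2.37-fold lower (-1.24, adjusted p = 3.45e-08). In young fat body it was above Vha100-2, which had 251 and 241 CPM there. VhaM9.7-1 (subunit e) and Vha68-1 (subunit A) differed less, with log2 fold changes of -0.49 (adjusted p = 0.00107) and -0.26 (adjusted p = 0.0376).

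Levels of different subunits were compared only per kilobase of transcript, with transcript lengths from a release 6 annotation. Vha16, which makes the c ring, was the highest leading paralogue in all 8 groups and Vha44 (subunit C) the lowest. In young midgut Vha16 had 1605 ± 78.6 CPM per kb and Vha44 240 CPM per kb. In old fat body Vha16 had 489 ± 57.6 CPM per kb (SD, n = 3) and Vha44 53.1 CPM per kb. The ratio of the highest to the lowest leading paralogue was between 6.68 and 9.61 in every group. Vha100-2 stood at rank 12 of 13 in old fat body (68.4 CPM per kb) and at rank 6 in young fat body (80.7 CPM per kb), whereas Vha36 stood at rank 7 in old (115.5 CPM per kb) and at rank 10 in young fat body (54.8 CPM per kb).

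Old against young fat body asks how the organ changes between 5 and 50 days. Nearly the whole pump rose. Of the 17 members tested, 12 rose, 1 fell and 4 did not pass, where 38.1% of all 10866 loci passed (19.1% higher and 19% lower). The 12 that rose were the leading paralogues of every subunit except a, and Vha100-1 was the one that fell. The members' median log2 fold change was 0.60, against 0.02 over all loci, and the 13 leading paralogues had a median of 0.64. Lam-RNAi against young fat body, which asks what targeting Lam does in young flies, gave the same counts of 12, 1 and 4, where 35.7% of all loci passed (18.5% higher and 17.1% lower). Its median was 0.67 over the members, -0.01 over all loci and 0.80 over the leading paralogues. The same 12 leading paralogues were positive in both comparisons under each scaling, while total counts alone lowered the share of calls that were higher to 34.9% of all calls with Lam-RNAi, against 52% with TMM. Both comparisons use the same 2 young libraries, so they are not independent, and their values are given side by side.

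**Figure D1:**
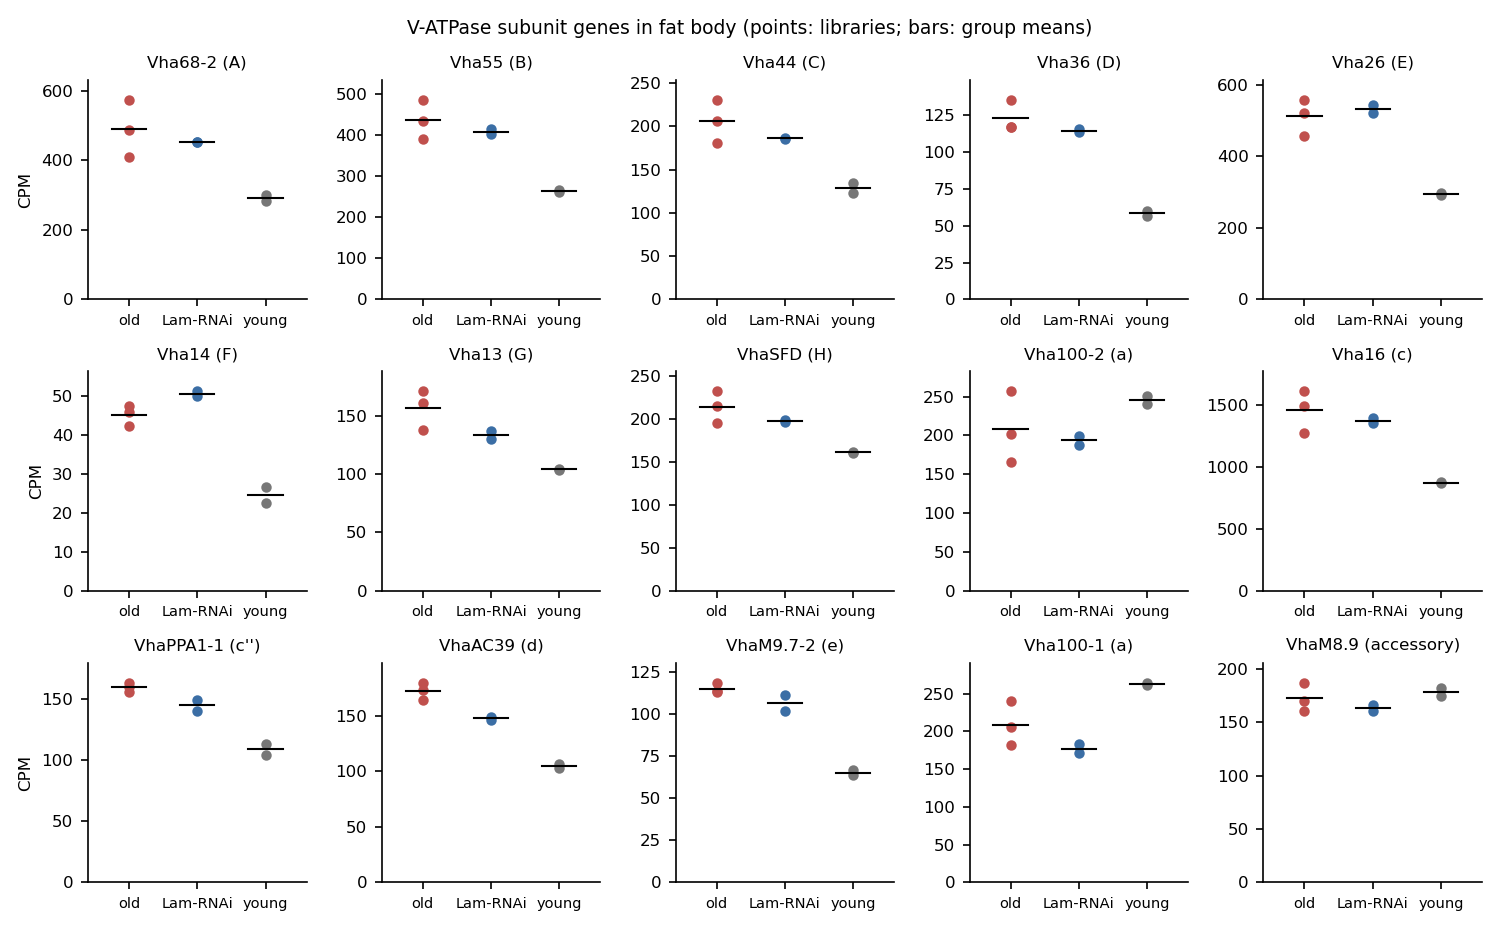
Level of the 13 leading paralogues and of Vha100-1 and VhaM8.9 in fat body, in CPM of the library total on a linear axis from 0, with 1 panel a gene; points are libraries of old, Lam-RNAi and young flies and bars are group means. For 12 of the 13 leading paralogues every old and every Lam-RNAi library lies above both young libraries, whereas Vha100-2 and Vha100-1 do not show this. The share of all loci with such a separation was not counted.

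In the catalytic head, Vha68-2 (subunit A; 2L:12974321-12978614, plus strand) had 408, 574 and 486 CPM in old fat body, 454 and 454 CPM in Lam-RNAi fat body, and 285 and 299 CPM in young fat body. Vha55 (subunit B; 3R:8449483-8453551, minus strand) had 392, 486 and 434 CPM in old, 415 and 402 CPM in Lam-RNAi, and 262 and 267 CPM in young fat body. Both genes were above the young libraries in all 5 of the other libraries, with old replicate 2 the highest. Vha68-2 rose 1.59-fold with age (log2 fold change 0.67, SE 0.16, adjusted p = 0.0187) and 1.75-fold with Lam-RNAi (0.81, SE 0.17, adjusted p = 0.0126). Vha55 rose 1.56-fold with age (0.64, SE 0.12, adjusted p = 0.00742) and 1.74-fold with Lam-RNAi (0.80, SE 0.13, adjusted p = 0.0045). Per kilobase, Vha68-2 and Vha55 kept a ratio of about 1.19 in the 3 fat body groups.

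The shaft genes rose most. Vha36 (subunit D; 2R:11428921-11430003, plus strand) had 117, 135 and 117 CPM in old, 115 and 113 CPM in Lam-RNAi, and 56.6 and 60.1 CPM in young fat body. Vha14 (subunit F; 2R:11566930-11567585, minus strand) had 42.3, 47.2 and 45.9 CPM in old, 49.9 and 51.1 CPM in Lam-RNAi, and 22.4 and 26.6 CPM in young fat body. The 3 groups of Vha14 did not overlap at all, with Lam-RNAi highest. Vha36 was 1.99-fold higher in old fat body (0.99, SE 0.11, adjusted p = 0.000893) and 2.21-fold higher in Lam-RNAi fat body (1.14, SE 0.12, adjusted p = 0.000732). Vha14 was 1.74-fold higher in old (0.80, SE 0.11, adjusted p = 0.00205) and 2.33-fold higher in Lam-RNAi fat body (1.22, SE 0.12, adjusted p = 0.000576).

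Among the stalk genes, Vha26 (subunit E; 3R:1417452-1420429, plus strand) had 458, 558 and 522 CPM in old, 520 and 543 CPM in Lam-RNAi, and 298 and 291 CPM in young fat body. It rose 1.64-fold with age (0.72, adjusted p = 0.00401) and 2.03-fold with Lam-RNAi (1.02, adjusted p = 0.0014). Vha13 (subunit G; 3R:15468979-15470126, minus strand) had 137, 171 and 161 CPM in old, 130 and 137 CPM in Lam-RNAi, and 104 and 104 CPM in young fat body. E and G form the same stalks, and the rise of Vha13 was 1.42-fold with age (0.50, adjusted p = 0.0176) and 1.45-fold with Lam-RNAi (0.53, adjusted p = 0.0199). Vha44 (subunit C, which joins V1 to V0 and is released when the pump comes apart) had 181, 230 and 206 CPM in old, 186 and 186 CPM in Lam-RNAi, and 123 and 134 CPM in young fat body. It rose 1.51-fold (0.60, adjusted p = 0.0131) and 1.63-fold (0.71, adjusted p = 0.00977) in those comparisons, and its position overlaps that of Hmgs by 549 bases. VhaSFD (subunit H, a regulator at the junction of the sectors) had 196, 232 and 214 CPM in old, 198 and 196 CPM in Lam-RNAi, and 160 and 162 CPM in young fat body. Its rise was the smallest of the 12, 1.25-fold with age (0.33, adjusted p = 0.0484) and 1.38-fold with Lam-RNAi (0.47, adjusted p = 0.0207). VhaSFD lies wholly within the span of CG31782, and whether the counting used strand is not given in the sources used here, so its values and those of other overlapping genes are uncertain.

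In the membrane sector, Vha16 (subunit c; 2R:2512746-2520633, minus strand) had 1272, 1610 and 1492 CPM in old, 1351 and 1398 CPM in Lam-RNAi, and 871 and 877 CPM in young fat body. It rose 1.58-fold with age (0.66, adjusted p = 0.00866) and 1.77-fold with Lam-RNAi (0.83, adjusted p = 0.005). VhaPPA1-1, which encodes the c'' subunit of the same ring, had 156, 163 and 159 CPM in old, 140 and 149 CPM in Lam-RNAi, and 113 and 104 CPM in young fat body. It rose 1.38-fold (0.47, adjusted p = 0.00594) and 1.5-fold (0.58, adjusted p = 0.00362). VhaAC39 (subunit d, the coupling between ring and shaft) had 164, 179 and 173 CPM in old, 146 and 149 CPM in Lam-RNAi, and 103 and 106 CPM in young fat body, and rose 1.55-fold with age (0.63, adjusted p = 0.00192) and 1.59-fold with Lam-RNAi (0.67, adjusted p = 0.00228). VhaM9.7-2 (subunit e, a small hydrophobic protein) had 114, 118 and 113 CPM in old, 102 and 111 CPM in Lam-RNAi, and 63.6 and 66.6 CPM in young fat body. It rose 1.67-fold (0.74, adjusted p = 0.000967) and 1.84-fold (0.88, adjusted p = 0.000709).

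Subunit a was the exception. Vha100-2 (3R:14216038-14224876, minus strand) had 166, 257 and 202 CPM in old, 199 and 188 CPM in Lam-RNAi, and 251 and 241 CPM in young fat body. The old libraries lay on both sides of the young ones and the Lam-RNAi libraries below them. Its changes did not pass with age (-0.32, 95% interval -0.77 to 0.13, adjusted p = 0.221) or with Lam-RNAi (-0.17, 95% interval -0.67 to 0.33, adjusted p = 0.556), and both intervals end below the rises of Vha68-2 and Vha16. Vha100-1 (3R:24956771-24963702, plus strand) had 240, 182 and 206 CPM in old, 171 and 184 CPM in Lam-RNAi, and 262 and 264 CPM in young fat body, so that every old and Lam-RNAi library was below both young ones. It fell by 0.42 on the log2 scale with age (SE 0.11, adjusted p = 0.0252) and by 0.40 with Lam-RNAi (SE 0.12, adjusted p = 0.0436). The call with age was lost without either young replicate or old replicate 3 and with total counts alone, and that with Lam-RNAi whichever of the 4 libraries was left out and with DESeq2 size factors. Neuronal markers summed to 95.1, 142 and 128 CPM in old, 123 and 128 CPM in Lam-RNAi, and 118 and 118 CPM in young fat body. The largest part of each sum was cpx, with 45.4, 85.8 and 75.0 CPM in old and 75.5 and 75.0 CPM in young fat body. Of the 8 neuronal markers 1 rose and 3 fell with age, where 38.1% of all loci passed. With Lam-RNAi 1 rose and 1 fell, where 35.7% of all loci passed. The part of these markers in the values of Vha100-1 was not tested. Summed over subunit a genes and counted per kilobase, the level was 139 ± 4.41 CPM per kb in old (SD, n = 3), 122 CPM per kb in Lam-RNAi and 170 CPM per kb in young fat body. The leading V1 genes summed to 1022 ± 111 CPM per kb in old, 967 CPM per kb in Lam-RNAi and 617 CPM per kb in young fat body. Vha100-2 shares 2161 bases with koko, and Vha100-1 shares 12 with CG14512.

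The remaining 3 fitted members did not pass in fat body. The accessory gene VhaM8.9 had 161, 187 and 170 CPM in old, 160 and 166 CPM in Lam-RNAi, and 182 and 174 CPM in young fat body, with changes of -0.13 (adjusted p = 0.334) and 0.05 (adjusted p = 0.765). Vha68-1, the minor subunit A gene, had 19.7, 22.3 and 22.9 CPM in old, 20.3 and 21.8 CPM in Lam-RNAi, and 19.6 and 17.6 CPM in young fat body (0.13, adjusted p = 0.359, and 0.35, adjusted p = 0.0584). VhaM9.7-1, the minor subunit e gene, had 24.0, 26.6 and 24.8 CPM in old, 21.4 and 23.3 CPM in Lam-RNAi, and 27.7 and 29.9 CPM in young fat body (-0.28, adjusted p = 0.0633, and -0.19, adjusted p = 0.21). VhaM9.7-1 lies within CG18675 and Teh2, and Vha68-1 resembles Vha68-2 in sequence while the treatment of reads that fit both is not given, so values of these minor paralogues are uncertain.

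Several sets of markers of other tissues differed between these groups. The 8 midgut markers summed to 1026, 158 and 562 CPM in old, 272 and 244 CPM in Lam-RNAi, and 75.8 and 74.1 CPM in young fat body, and 5 of the 8 rose in each comparison. Those sums are 2.56, 0.395 and 1.40% of the old midgut level in the old libraries, 0.631 and 0.567% of the Lam-RNAi midgut level, and 0.177 and 0.173% of the young midgut level. A fit without old replicates 1 and 3, a choice made after the marker sums were seen, leaves 1 old library. That lone library is assumed to vary like the other groups, so counts of members called in this fit are not given. Muscle markers summed to 1930, 3421 and 2722 CPM in old, 3432 and 3300 CPM in Lam-RNAi, and 6136 and 6112 CPM in young fat body. Of these 7 markers 0 rose and 5 fell with age, and 2 rose, 2 fell and 3 did not pass with Lam-RNAi. Hindgut markers came to between 14.0 and 29.7 CPM in old and Lam-RNAi fat body, against 6.89 and 6.76 CPM in young fat body, and 4 of 5 rose in each comparison. Tubule markers summed to 136, 256 and 206 CPM in old, 157 and 124 CPM in Lam-RNAi, and 207 and 205 CPM in young fat body. Of these 9 markers 0 rose and 1 fell with age, and 0 rose and 2 fell with Lam-RNAi. Of the 8 fat body markers 3 rose and 1 fell with age, and 4 rose and 1 fell with Lam-RNAi. Over all loci 38.1% passed with age and 35.7% with Lam-RNAi. The part of midgut, muscle, hindgut, tubule and fat body markers in the result was not tested.

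The age result rested in part on both young libraries. Leaving out young replicate 1 gave 6 members called, young replicate 2 gave 5 and old replicate 3 gave 9, and with Lam-RNAi it was 8 without any 1 of the 4 libraries. Vha36, Vha14, VhaM9.7-2, Vha26 and VhaAC39 rose with age whichever library was left out, and in Lam-RNAi fat body so did these 5 and Vha16, Vha55 and VhaPPA1-1.

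**Figure D2:**
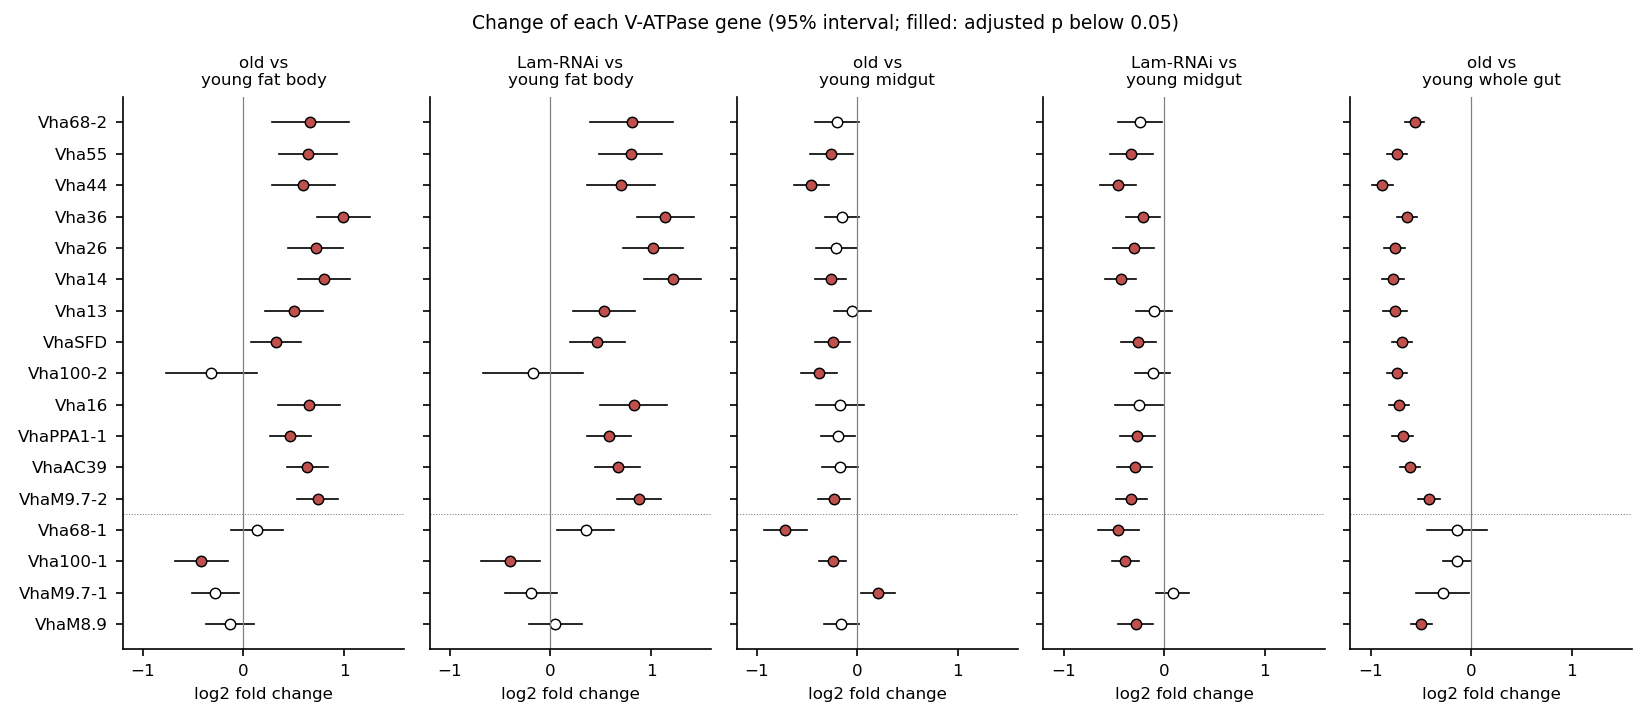
Log2 fold change (edgeR with TMM scaling, horizontal axis) of the 17 fitted members in 5 comparisons with young samples of the same tissue; points are fold changes, lines are 95% intervals, filled points have an adjusted p below 0.05, and a dotted line sets the 13 leading paralogues apart from the other 4. In both fat body panels 12 leading paralogues lie to the right of 0, and in the midgut and whole gut panels all 13 lie to its left with this scaling, although Vha13, Vha100-2 and VhaM9.7-2 cross 0 in some of them with total counts alone.

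Paralogues of the same subunit changed in unequal measure, so their shares of the subunit's reads per kilobase differed between groups. The relative CG8310, whose present name is Vha36-3 and which is a testis-type subunit D gene, had 4.19, 6.33 and 5.70 CPM in old, 3.45 and 3.92 CPM in Lam-RNAi, and 12.1 and 11.9 CPM in young fat body. All 5 old and Lam-RNAi libraries were below the young ones. It was 2.35-fold lower in old (-1.23, SE 0.20, adjusted p = 0.00392) and 2.88-fold lower in Lam-RNAi fat body (-1.53, SE 0.22, adjusted p = 0.00292), while its paralogue Vha36 rose. CG8310 held 2.86 to 3.86% of the subunit D level per kilobase in old, 2.40 to 2.76% in Lam-RNAi and 14.0 to 14.9% in young fat body, and at most 0.13% in any gut library. The 14 testis markers summed to 6.14, 4.18 and 5.90 CPM in old and 7.23 and 6.06 CPM in Lam-RNAi fat body. In young fat body the sums were 7.49 and 6.67 CPM. The largest part of each sum was twe, with 5.36 and 4.79 CPM in young and 5.87 and 4.98 CPM in Lam-RNAi fat body. Of the 14 markers, 2 had no reads in young, 4 had none in old and 4 had none in Lam-RNAi fat body. The part of these markers in the fall of CG8310 was not tested. For subunit e, VhaM9.7-1 held 23.2 to 24.3% in old, 23.07 to 23.11% in Lam-RNAi and 38.2 to 39.0% in young fat body. For subunit A, Vha68-1 held 3.63 to 4.48% in old, 4.16 to 4.45% in Lam-RNAi and 5.40 to 6.26% in young fat body. These shares are descriptions without a test.

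**Figure D3:**
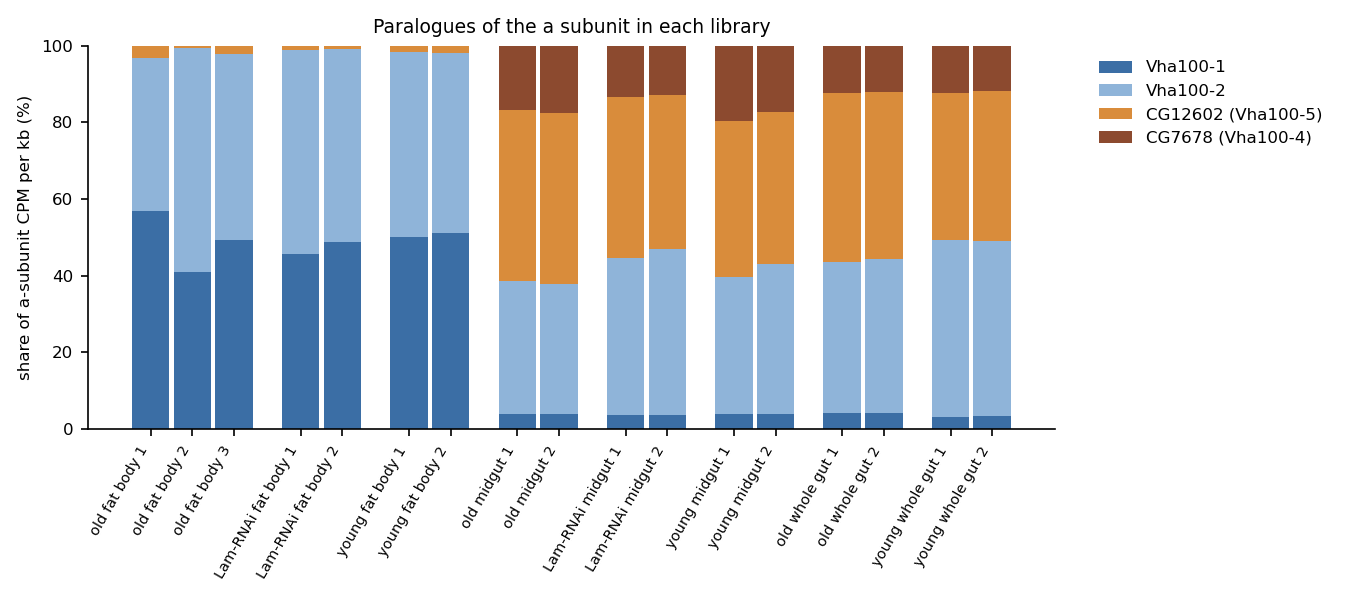
Share of the summed subunit a level (CPM per kilobase of transcript, in %) held by Vha100-1, Vha100-2 and the relatives CG12602 and CG7678 in each of the 17 libraries, as stacked bars from 0 to 100%. Vha100-1 and Vha100-2 make up nearly all of it in fat body, whereas CG12602 and CG7678 together take over 50% in every midgut and whole gut library.

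Subunit a was also the subunit whose paralogues differed most between tissues. Vha100-1 held 41.1 to 57.0% of the subunit a level in old fat body, 45.6 to 48.8% in Lam-RNAi and 50.0 to 51.2% in young fat body, against at most 4.3% in any gut library. CG12602, the gene now called Vha100-5, had 775 and 787 CPM in young midgut, against 8.0 and 8.94 CPM in young fat body, 127-fold higher (log2 fold change 6.99, adjusted p = 4.51e-07). CG7678, the gene now called Vha100-4, had 352 and 321 CPM in young midgut, against 0.659 and 0.0532 CPM in young fat body, where the second value is that of 3 counts. Its log2 fold change was 10.62 (adjusted p = 9.69e-09). CG12602 held between 38.3 and 44.7% of the subunit a level in the gut libraries. CG7678 held 16.8 to 17.6% in old midgut, 12.9 to 13.4% in midgut labelled Lam-RNAi and 17.3 to 19.8% in young midgut, and 11.8 to 12.3% in whole gut. CG7678 lies 512 bases from Vha100-2 on the same strand of chromosome 3R and overlaps cona by 58 bases. In fat body CG12602 had 12.7, 2.28 and 7.88 CPM in old, 3.67 and 2.83 CPM in Lam-RNAi, and 8.0 and 8.94 CPM in young libraries, and its changes did not pass.

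In midgut most pump genes had small negative fold changes with TMM scaling. In old against young midgut 1 member rose, 8 fell and 8 did not pass, where 53.7% of all 10220 loci passed (25% higher and 28.7% lower), so the share of members called was close to that of all loci. The members' median log2 fold change was -0.21, against 0.01 over all loci. In midgut labelled Lam-RNAi against young midgut 0 members rose, 12 fell and 5 did not pass, where 55.4% of all loci passed (25.5% higher and 29.9% lower). Of all calls in that comparison 46% were higher, against 58.1% with upper quartile factors and 61.4% with total counts alone. The count of members called was 5 with upper quartile factors and 4 with total counts alone, and in old midgut it was 3 with total counts alone, against 9 with TMM. Its median was -0.28, against -0.01 over all loci. All 13 leading paralogues had a negative fold change in both comparisons with TMM, except that Vha13 turned positive with total counts in both and with upper quartile factors in old midgut, and Vha100-2 with total counts in midgut labelled Lam-RNAi. Both comparisons share the 2 young libraries, and 6 passed with age and 9 in the libraries labelled Lam-RNAi. Lam itself did not pass in the midgut libraries labelled Lam-RNAi, so directions are those of the labels.

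In the head and shaft, Vha68-2 had 2329 and 2343 CPM in old midgut, 2416 and 2429 CPM in midgut labelled Lam-RNAi, and 2524 and 2639 CPM in young midgut. Vha55 had 1841 and 1873 CPM in old, 1846 and 1914 CPM in midgut labelled Lam-RNAi, and 2095 and 2172 CPM in young midgut. Vha55 fell by 0.26 on the log2 scale with age (adjusted p = 0.0427) and by 0.33 in the libraries labelled Lam-RNAi (adjusted p = 0.0128), whereas Vha68-2 did not pass in either (-0.20, adjusted p = 0.109, and -0.24, adjusted p = 0.0606). Vha36 had 605 and 600 CPM in old, 612 and 613 CPM in midgut labelled Lam-RNAi, and 630 and 654 CPM in young midgut. Vha14 had 302 and 295 CPM in old, 275 and 291 CPM in midgut labelled Lam-RNAi, and 336 and 354 CPM in young midgut. The shaft genes therefore fell where they passed, Vha36 in the libraries labelled Lam-RNAi (-0.21, adjusted p = 0.034) and Vha14 in both comparisons (-0.26, adjusted p = 0.00687, and -0.43, adjusted p = 0.000218).

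Among the stalk genes, Vha44 had 729 and 684 CPM in old, 772 and 729 CPM in midgut labelled Lam-RNAi, and 896 and 967 CPM in young midgut. Its fall was the largest among leading paralogues in both comparisons, 1.37-fold each (-0.46, SE 0.08, adjusted p = 0.000455, and -0.46, SE 0.08, adjusted p = 0.000423). Vha26 had 1716 and 1619 CPM in old, 1693 and 1628 CPM in midgut labelled Lam-RNAi, and 1772 and 1930 CPM in young midgut. VhaSFD had 701 and 691 CPM in old, 727 and 738 CPM in midgut labelled Lam-RNAi, and 773 and 812 CPM in young midgut. VhaSFD fell in both (-0.24, adjusted p = 0.022, and -0.26, adjusted p = 0.0154) and Vha26 in the libraries labelled Lam-RNAi (-0.30, adjusted p = 0.0149). Vha13 had 898 and 896 CPM in old, 904 and 937 CPM in midgut labelled Lam-RNAi, and 865 and 921 CPM in young midgut. Its groups overlapped, and its changes of -0.05 (adjusted p = 0.643) and -0.10 (adjusted p = 0.326) did not pass.

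In the membrane sector of the midgut, Vha16 had 4473 and 4359 CPM in old, 4426 and 4453 CPM in midgut labelled Lam-RNAi, and 4620 and 4951 CPM in young midgut, and did not pass (-0.17, adjusted p = 0.204, and -0.25, adjusted p = 0.0667). VhaPPA1-1 had 704 and 686 CPM in old, 697 and 706 CPM in midgut labelled Lam-RNAi, and 739 and 788 CPM in young midgut. VhaAC39 had 660 and 650 CPM in old, 638 and 643 CPM in midgut labelled Lam-RNAi, and 703 and 715 CPM in young midgut. Both were below the young libraries throughout, but only the changes in the libraries labelled Lam-RNAi passed (-0.27, adjusted p = 0.0119, and -0.29, adjusted p = 0.00779). VhaM9.7-2 had 389 and 380 CPM in old, 385 and 381 CPM in midgut labelled Lam-RNAi, and 423 and 445 CPM in young midgut, and fell in both (-0.23, adjusted p = 0.0155, and -0.33, adjusted p = 0.00179). Vha100-2 had 619 and 591 CPM in old, 750 and 796 CPM in midgut labelled Lam-RNAi, and 711 and 804 CPM in young midgut. It fell with age (-0.38, SE 0.08, adjusted p = 0.00174), while its libraries labelled Lam-RNAi lay within the range of the young ones (-0.11, adjusted p = 0.249). The relative CG7678, another subunit a gene, fell in both, by 0.37 with age (adjusted p = 0.00356) and by 0.79 in the libraries labelled Lam-RNAi (adjusted p = 9.22e-06).

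Of the other 4 fitted members, Vha68-1 had 7.09 and 7.11 CPM in old, 8.77 and 9.39 CPM in midgut labelled Lam-RNAi, and 10.5 and 12.0 CPM in young midgut, and its 3 groups did not overlap. It was 1.64-fold lower in old midgut (-0.72, SE 0.10, adjusted p = 5.51e-05) and 1.37-fold lower in midgut labelled Lam-RNAi (-0.46, SE 0.09, adjusted p = 0.00131). Vha100-1 had 72.5 and 69.2 CPM in old, 68.3 and 68.4 CPM in midgut labelled Lam-RNAi, and 76.9 and 84.7 CPM in young midgut (-0.25, adjusted p = 0.00493, and -0.39, adjusted p = 0.000181). VhaM9.7-1 had 19.0 and 17.1 CPM in old, 17.2 and 17.9 CPM in midgut labelled Lam-RNAi, and 14.2 and 15.7 CPM in young midgut. It was the member that rose with age (0.21, adjusted p = 0.0385), and that call was lost whichever 1 of the 4 libraries was left out. VhaM8.9 had 701 and 698 CPM in old, 686 and 678 CPM in midgut labelled Lam-RNAi, and 735 and 764 CPM in young midgut, and fell in the libraries labelled Lam-RNAi (-0.28, adjusted p = 0.00975) but did not pass with age (-0.16, adjusted p = 0.118).

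The copper cell markers, 4 genes of the acid-secreting midgut zone, summed to 405 and 374 CPM in old, 444 and 478 CPM in midgut labelled Lam-RNAi, and 453 and 425 CPM in young midgut. Fat body markers summed to 1129 and 1224 CPM in old, 1004 and 1021 CPM in midgut labelled Lam-RNAi, and 5126 and 6330 CPM in young midgut, and all 8 fell in both comparisons. Tubule markers summed to 13.2 and 11.1 CPM in old, 14.1 and 12.7 CPM in midgut labelled Lam-RNAi, and 41.0 and 51.1 CPM in young midgut. Muscle markers summed to 1283 and 1144 CPM in old, 1620 and 1634 CPM in midgut labelled Lam-RNAi, and 2811 and 3057 CPM in young midgut, and 6 of 7 fell in both comparisons. Hindgut markers summed to 94.6 and 84.4 CPM in old, 110.1 and 115.5 CPM in midgut labelled Lam-RNAi, and 70.7 and 80.5 CPM in young midgut. The part of these markers in the falls was not tested. In old midgut, leaving out young replicate 1 gave 5 members called, old replicate 1 gave 3 and old replicate 2 gave 5. In midgut labelled Lam-RNAi it was 7 without young replicate 1. Among leading paralogues, Vha44 and Vha100-2 fell with age and Vha14, Vha44 and VhaM9.7-2 fell in the libraries labelled Lam-RNAi whichever library was left out.

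Whether the effects differed between fat body and midgut was tested directly, as a difference of the 2 effects in 1 fit of all 17 libraries. Such a difference can pass without opposite directions. In midgut 7 of the 13 leading paralogues did not pass with age and 4 did not in the libraries labelled Lam-RNAi. For age, the effect was more positive in fat body than in midgut for 13 members, more negative for 1 and not distinguishable for 3, where 44.3% of all loci passed (23.8% higher and 20.4% lower in fat body). The members' median difference was 0.79, against 0.02 over all loci. For Lam-RNAi 13 members were more positive in fat body and 0 more negative, where 46.7% of all loci passed (24.1% higher and 22.5% lower), with a median of 0.92 against -0.01. Of all calls 53.8% for age and 51.7% for Lam-RNAi were higher, against 64.5% and 64% with DESeq2 size factors, and 35% for Lam-RNAi with total counts alone. Vha14 had the largest difference for Lam-RNAi (1.6, SE 0.14, adjusted p = 1.04e-06), and Vha36 the largest for age (1.1, SE 0.13, adjusted p = 2.36e-05). Vha100-2 was the leading paralogue whose difference did not pass for age (0.02, adjusted p = 0.962) or for Lam-RNAi (-0.10, adjusted p = 0.74), and VhaM9.7-1 was the member with the reverse sign for age (-0.53, adjusted p = 0.00811). Of the 13 leading paralogues, 11 passed for age and 12 for Lam-RNAi whichever library was left out.

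Old against young whole gut asks the same question in a separate set of libraries at 40 days. Of the 17 members tested, 0 rose, 14 fell and 3 did not pass, where 43.6% of all 9773 loci passed (20.1% higher and 23.4% lower). All 13 leading paralogues fell, with a median of -0.72, against 0.02 over all loci, and kept that call whichever library was left out, although VhaM9.7-2 turned positive with total counts alone. The size of these falls depended on how the libraries were scaled. The TMM factors were 1.19 in both old libraries and 0.835 and 0.849 in the young ones. With scaling by total counts alone the median of all loci moved to 0.52, 11 of the 13 leading paralogues still fell, 2 other members rose, and 87.9% of all calls were higher, against 60.9% with upper quartile factors and 46.3% with TMM. Falls are therefore given relative to the bulk of the other genes, and the CPM values beside them show a smaller step.

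**Figure D4:**
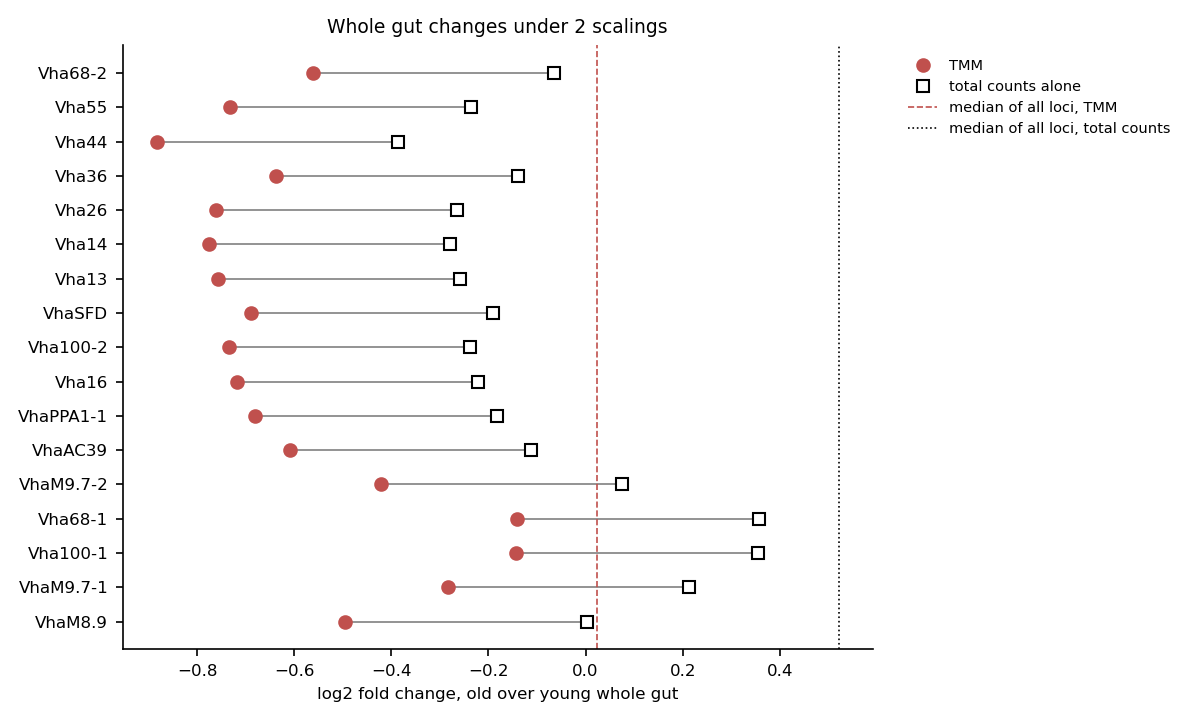
Log2 fold change of the 17 fitted members in old against young whole gut with TMM scaling and with scaling by total counts alone; points are members and lines mark the median of all loci under each scaling. The members lie below the line of all loci under both scalings, and several move across 0 when total counts are used.

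Among the V1 genes, Vha68-2 had 3082 and 3066 CPM in old and 3180 and 3254 CPM in young whole gut (-0.56, SE 0.05, adjusted p = 3.23e-07). Vha55 had 1966 and 1999 CPM in old and 2348 and 2322 CPM in young whole gut (-0.73, adjusted p = 3e-08). Vha44 had 729 and 705 CPM in old and 913 and 961 CPM in young whole gut, the largest fall at 1.84-fold (-0.88, SE 0.05, adjusted p = 6.58e-09). All 3 had both old libraries below both young ones. Vha36 had 571 and 556 CPM in old and 616 and 626 CPM in young whole gut (-0.64). Vha14 had 297 and 292 CPM in old and 365 and 349 CPM in young whole gut (-0.78). Vha26 had 1668 and 1630 CPM in old and 1912 and 2050 CPM in young whole gut (-0.76). These shaft and stalk genes did not overlap between the ages either, with adjusted p of at most 1.41e-07. Vha13 had 657 and 687 CPM in old and 839 and 768 CPM in young whole gut (-0.76), and VhaSFD had 833 and 827 CPM in old and 938 and 958 CPM in young whole gut (-0.69).

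Among the V0 genes of whole gut, Vha16 had 4781 and 4640 CPM in old and 5410 and 5577 CPM in young libraries (-0.72, adjusted p = 3.41e-08). Vha100-2 had 867 and 869 CPM in old and 1018 and 1030 CPM in young libraries (-0.73, adjusted p = 2.63e-08). VhaPPA1-1 had 612 and 606 CPM in old and 681 and 703 CPM in young libraries (-0.68, adjusted p = 6.61e-08). Among subunit a genes Vha100-2 was below the young libraries, whereas summed over all subunit a genes the level was 720 CPM per kb in old and 733 CPM per kb in young whole gut. VhaAC39 had 593 and 602 CPM in old and 644 and 647 CPM in young libraries (-0.61, adjusted p = 2.1e-07). VhaM9.7-2 had 408 and 390 CPM in old and 367 and 390 CPM in young libraries, so its CPM did not fall, and its TMM-scaled change of -0.42 (adjusted p = 1.58e-05) became 0.08 with total counts alone. The accessory gene VhaM8.9 had 805 and 839 CPM in old and 831 and 810 CPM in young libraries, and its fall of 0.49 on the log2 scale (adjusted p = 2.51e-06) was likewise not seen with total counts alone. Vha68-1 (12.7 and 12.7 CPM in old and 9.60 and 10.2 CPM in young libraries), Vha100-1 (95.1 and 94.4 CPM in old and 71.5 and 76.7 CPM in young libraries) and VhaM9.7-1 (20.8 and 17.9 CPM in old and 17.5 and 15.8 CPM in young libraries) did not pass. Tubule markers, from an organ rich in the pump that joins the gut where midgut and hindgut meet, summed to 2183 and 2281 CPM in old and 2495 and 2514 CPM in young whole gut, and 8 of 9 of them fell. Fat body markers summed to 3132 and 3401 CPM in old and 5299 and 5013 CPM in young whole gut, and 7 of 8 fell. Of the copper cell markers 3 of 4 fell and 1 rose, of the midgut markers 5 of 8 fell and 3 rose, and of the muscle markers 3 of 7 fell. The part of all these markers in the falls was not tested.

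The age effect was also compared between whole gut and midgut, which differ in the old age sampled as well as in tissue. It was more negative in whole gut for 10 members, more positive for 1 (Vha68-1, 0.59, adjusted p = 0.0097) and not distinguishable for 6, where 30% of all loci passed (17.6% higher and 12.5% lower). The members' median difference was -0.43, against 0.07 over all loci. Vha13 (-0.69, adjusted p = 0.00499) and VhaPPA1-1 (-0.47, adjusted p = 0.00547) kept the call whichever library was left out, while the count over the members ranged from 4 to 8 in those fits. With total counts alone only 2 members were called, 5 of the 13 leading paralogues were positive, and 88.7% of all calls were higher, against 58.5% with TMM.

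Young whole gut against young midgut gave 9 members higher in whole gut and 0 lower, where 42.2% of all loci passed (19.3% higher and 22.8% lower), and a median of 0.31 against -0.05 over all loci. Vha100-2 had 1018 and 1030 CPM in young whole gut and 711 and 804 CPM in young midgut, 1.62-fold higher (0.70, adjusted p = 0.00367), and Vha68-2 was 1.49-fold higher (0.58, adjusted p = 0.00457). All 13 leading paralogues had a positive fold change with TMM, but 8 were positive and 5 negative under scaling by total counts. Part of the directions here therefore rest on the scaling. With total counts alone 3 members were called and 22.1% of all calls were higher, against 45.8% with TMM. The count was 2 without young midgut replicate 2 and 4 without young whole gut replicate 1, and VhaSFD and Vha100-2 were the leading paralogues called in every such fit. Tissue and experiment cannot be told apart in this comparison.

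Across the 8 groups, 12 of the 13 leading paralogues had their lowest mean CPM in young fat body, and Vha100-2 in Lam-RNAi fat body. Gut libraries make up most of the mean by which these were chosen, so a lowest mean in fat body was partly fixed by that choice. Among the minor paralogues, Vha100-1 and VhaM9.7-1 had their highest mean in young fat body and Vha68-1 in old fat body. The share of all loci with their lowest mean in young fat body was not counted. The highest mean was in young whole gut for 8 of the 13, in young midgut for 4 and in midgut labelled Lam-RNAi for 1, Vha13. For Vha13 the 3 midgut groups overlapped, with 904 and 937 CPM in midgut labelled Lam-RNAi, 898 and 896 CPM in old midgut, and 865 and 921 CPM in young midgut, and both whole gut groups lay lower. Other genes were spread further over the gut groups, Vha100-2 with means between 605 and 1024 CPM and Vha68-2 between 2336 and 3217 CPM.

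The testis-type and silent members were at or near the floor. Vha100-3, a testis-type subunit a gene inside sano, reached 0.296 CPM in young whole gut replicate 1 and at most 0.0599 CPM in the fat body libraries. Vha16-2 had 1 read in 1 Lam-RNAi fat body library. Vha16-3, 984 bases away on 3L, had 0 reads in all 17 libraries, where up to 0.0948 CPM could go undetected in the shallowest library. Among the 14 relatives, 8 are testis-type and 6 are not. In young midgut against young fat body 9 of the 14 were fitted, 5 were higher and 1 was lower, where 69.3% of all loci passed. CG4624 (now VhaAC39-2, a testis-type subunit d gene) had 3.07 and 3.31 CPM in young midgut, against 0.0599 and 0.0532 CPM in young fat body, both of 3 counts or fewer. It fell in midgut with age (-0.59, adjusted p = 0.0287) and in the libraries labelled Lam-RNAi (-1.66, adjusted p = 4.04e-05), with 1.87 and 2.40 CPM in old midgut and 1.33 and 0.914 CPM in midgut labelled Lam-RNAi. CG8029 (now VhaAC45), an accessory gene of the kind that helps to assemble and place the pump, had 1003 and 995 CPM in old, 981 and 1014 CPM in midgut labelled Lam-RNAi, and 1126 and 1170 CPM in young midgut. It fell in midgut (-0.26, adjusted p = 0.025, and -0.35, adjusted p = 0.00446) and rose in Lam-RNAi fat body (0.37, adjusted p = 0.0207), where it had 224 and 234 CPM, against 193 and 206 CPM in young fat body. In old fat body CG8029 had 247, 261 and 249 CPM, also above the young libraries, but its change with age did not pass.

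Other genes of the pathway were read from 4 lists chosen with earlier results of these data known. Their counts stand beside the share of all loci called, which was 38.1% in old fat body, 35.7% in Lam-RNAi fat body, 53.7% in old midgut, 55.4% in midgut labelled Lam-RNAi, 43.6% in old whole gut and 69.3% in young midgut against young fat body. Of 6 genes for assembly and regulation of the pump, 1 rose and 0 fell in old and likewise in Lam-RNAi fat body. It was Rbcn-3A, part of a complex that loads V1 onto V0, with 145, 143 and 137 CPM in old, 119 and 119 CPM in Lam-RNAi, and 102 and 92.8 CPM in young fat body (0.46, adjusted p = 0.00554, and 0.46, adjusted p = 0.0079). Mitf, the transcription factor that in flies drives pump and lysosome genes, had 63.0, 76.0 and 76.9 CPM in old, 76.5 and 78.0 CPM in Lam-RNAi, and 79.6 and 82.8 CPM in young fat body and did not pass (-0.26, adjusted p = 0.112, and 0.10, adjusted p = 0.551). In midgut 0 of the 6 rose and 2 fell with age, and all 6 fell in the libraries labelled Lam-RNAi, among them Mitf (-0.32, adjusted p = 0.00218) and Rbcn-3A (-0.26, adjusted p = 0.00828). In old whole gut 0 rose and 5 fell, with Rbcn-3B at -0.58 (adjusted p = 1.04e-06). In young midgut against young fat body all 6 were higher.

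Of 21 lysosomal enzyme and membrane genes, 6 rose and 6 fell in old fat body, and 7 rose and 3 fell in Lam-RNAi fat body, so both directions were present. CG8596 (now Cln7, a lysosomal membrane transporter) had 65.0, 72.0 and 65.6 CPM in old, 80.2 and 85.2 CPM in Lam-RNAi, and 192 and 188 CPM in young fat body (-1.58, adjusted p = 8.37e-05, and -1.03, adjusted p = 0.000578). CG10157 (now GILT2, a lysosomal thiol reductase) had 86.2, 81.6 and 82.4 CPM in old, 95.1 and 103 CPM in Lam-RNAi, and 50.7 and 51.3 CPM in young fat body (0.62, adjusted p = 0.00109, and 1.13, adjusted p = 0.000179). Of these 21 genes 4 rose and 9 fell in old midgut, 2 rose and 10 fell in midgut labelled Lam-RNAi, and 5 rose and 6 fell in old whole gut. Of 12 TORC1 genes, which act with the pump at the lysosome in sensing amino acids, 2 rose and 1 fell in old fat body, 1 rose and 1 fell in Lam-RNAi fat body, 5 rose and 1 fell in old midgut, 4 rose and 0 fell in midgut labelled Lam-RNAi, and 0 rose and 3 fell in old whole gut. In each of these 5 comparisons the share of TORC1 genes called was below that of all loci.

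Of 12 genes for transport of protons, chloride and bicarbonate, 6 rose and 1 fell in old fat body and 4 rose and 1 fell in Lam-RNAi fat body. Nha1, a sodium and proton antiporter of the plasma membrane, had 6.63, 20.9 and 14.8 CPM in old, 15.7 and 12.4 CPM in Lam-RNAi, and 0.479 and 0.443 CPM in young fat body. It was 29.0-fold higher in old (4.86, SE 0.61, adjusted p = 0.00141) and 34.3-fold higher in Lam-RNAi fat body (5.10, SE 0.63, adjusted p = 0.00142). The part of the midgut markers in these values was not tested. Nhe1, a sodium and proton exchanger, was the one that fell, with 35.5, 32.7 and 31.7 CPM in old, 30.5 and 32.4 CPM in Lam-RNAi, and 68.5 and 66.6 CPM in young fat body (-1.11, adjusted p = 0.000167, and -0.93, adjusted p = 0.000517). In midgut 6 of the 12 rose and 4 fell with age, and 4 rose and 4 fell in the libraries labelled Lam-RNAi. In old whole gut 2 rose and 9 fell, among them Nha1, with 182 and 187 CPM in old and 312 and 303 CPM in young whole gut (-1.23).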

How the data were processed

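Poly-A RNA of dissected fat bodies, midguts and whole guts was extracted with PicoPure kits and made into TruSeq version 2 libraries, per the labels' protocols. The deposited files hold raw read counts per annotated gene with symbol, position and strand. The submitters' processing notes name CASAVA 1.8 for base calls, TopHat2 for alignment, and edgeR. What counted the reads, the strand setting, handling of multi-mapped reads and genome build are not given in the sources used here, and coordinates are those of the files.

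The 15080 entries per file were merged to 14095 loci where position and counts were identical. Members are the loci whose symbol begins with Vha. Present names of relatives come from a RefSeq release 6 gene table, and transcript lengths (canonical transcript) from Ensembl's annotation of it. Tests were run over all loci that passed filterByExpr in edgeR 4.0.16 (R 4.3.3), by a robust quasi-likelihood F test with TMM factors. The threshold was a Benjamini-Hochberg adjusted p of 0.05. There was 1 fit per tissue, with 10866 loci in fat body, 10220 in midgut and 9773 in whole gut and residual degrees of freedom of 4, 3 and 2, and 1 fit of all 17 libraries (11128 loci, 9 degrees of freedom) for differences between tissues. The biological coefficient of variation was 19.4% for fat body, 6.61% for midgut, 7.32% for whole gut and 13.9% for all libraries. Python 3.11.15 with numpy 2.4.6, pandas 2.3.3 and matplotlib 3.10.9 handled tables and plots. The fits were also run on simulated counts with known changes and a fixed spread, which was lower than that of the fat body libraries. That run checks the procedure and does not give its error rates for these data.

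The design text speaks of biological replicates, but the labels do not say that they are separate flies, and a p-value here therefore reflects the variation among these libraries, which may be technical. No replicates were copies of one another (chi-square per gene 7.73 to 336 within groups). Members, lists and tests were chosen with earlier results of these data known. Values per library are given for the leading paralogue of each subunit and for the members and relatives that a result turns on, and for list genes among the 3 with the smallest p in a list and comparison. Mitf in fat body and Nha1 in whole gut are given outside that choice or for contrast with other tissues. The 12 lists held 120 entries, 2 of them unmatched and 26 matched by synonym. Alternatives were DESeq2 1.42.0 and upper quartile scaling, total counts alone, other count filters, DESeq2's test, limma-voom (limma 3.58.1), the replicate block, other samples in the fit, and each replicate left out. Leaving out old fat body replicates 1 and 3 together was added after seeing the data.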

Additional observations from a re-analysis of the deposited data

Results flagged for a closer look

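Many pump genes had effects that differed between tissues by a test of the difference itself (edgeR quasi-likelihood test, Benjamini-Hochberg adjusted p below 0.05). All values are differences of log2 fold changes. For age, fat body minus midgut, the V1 genes gave 0.82 for Vha68-2, 0.86 for Vha55, 1.01 for Vha44, 1.1 for Vha36, 0.88 for Vha26, 1.02 for Vha14, 0.51 for Vha13 and 0.53 for VhaSFD. The V0 genes gave 0.79 for Vha16, 0.62 for VhaPPA1-1, 0.76 for VhaAC39 and 0.92 for VhaM9.7-2. Minor paralogues gave 0.81 for Vha68-1, where midgut fell and fat body did not pass, and -0.53 for VhaM9.7-1. Among relatives the values were 0.47 for CG8029, and 3.06 for CG5075 and 2.21 for CG4624, both of which are near the floor in fat body.

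For Lam-RNAi, fat body minus midgut, the V1 genes gave 1.0 for Vha68-2, 1.08 for Vha55, 1.12 for Vha44, 1.31 for Vha36, 1.28 for Vha26, 1.6 for Vha14, 0.59 for Vha13 and 0.68 for VhaSFD. The V0 genes gave 1.03 for Vha16, 0.81 for VhaPPA1-1, 0.92 for VhaAC39 and 1.16 for VhaM9.7-2. Vha68-1 gave 0.76 and CG8029 gave 0.68. Subunit a genes are absent from both lists of differences that passed.

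For age, whole gut minus midgut, the values were -0.46 for Vha55, -0.47 for Vha36, -0.54 for Vha26, -0.50 for Vha14, -0.69 for Vha13, -0.43 for VhaSFD, -0.53 for Vha16, -0.47 for VhaPPA1-1 and -0.42 for VhaAC39. Vha68-1 gave 0.59, VhaM9.7-1 gave -0.48 and CG8029 gave -0.36. Old flies were 40 days old in whole gut and 50 days old in midgut, so age and tissue cannot be told apart here.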

How the results depend on the processing

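Over the members and relatives, 3452 of 3824 values under an alternative kept their side of the threshold, 292 lost the call, 73 gained it, and 7 changed sign and were called under 1 of the settings or both. A further 87, called under neither, changed sign as well. With total counts alone, old against young whole gut became 0.16 for CG12602, 0.36 for Vha68-1, 0.0755 for VhaM9.7-2, 0.0025 for VhaM8.9 and 0.35 for Vha100-1, and the age difference of whole gut and midgut became 0.0628 for CG8029 and 0.001 for VhaAC39. Total counts also gave 3 members called in old midgut, 4 in midgut labelled Lam-RNAi, 3 in young whole gut against young midgut and 2 in the age difference of whole gut and midgut. Upper quartile factors gave 5 in midgut labelled Lam-RNAi, DESeq2's test 14 in old midgut, and a fit of all 17 libraries 4 in old midgut and 7 in midgut labelled Lam-RNAi. With each replicate left out the counts ranged from 5 to 15 in old fat body, 8 to 8 in Lam-RNAi fat body, 3 to 7 in old midgut, 7 to 12 in midgut labelled Lam-RNAi, 2 to 7 in young whole gut against young midgut and 4 to 8 in the age difference of whole gut and midgut.

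With the replicate block 5 members were called in old fat body. Across genes, equal-numbered libraries had deviations with r of -0.029 to -0.006 in these comparisons, so a number pairs nothing. The median of all loci moved with total counts alone to 0.105 in old and -0.183 in Lam-RNAi fat body, 0.135 in midgut labelled Lam-RNAi, -0.478 in young midgut against young fat body, -0.315 in young whole gut against young midgut and 0.5 in the age difference of whole gut and midgut. Groups hold only 2 or 3 libraries, and CG5075, CG1268 and CG4624 are near the count floor in several groups, so that depth limits their values as well.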

Other observations

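The 3 old fat body libraries ordered the subunit a genes in opposite ways. Vha100-2 was lowest in replicate 1 (166 CPM), intermediate in replicate 3 (202 CPM) and highest in replicate 2 (257 CPM). Vha100-1 was highest in replicate 1 (240 CPM), intermediate in replicate 3 (206 CPM) and lowest in replicate 2 (182 CPM). CG12602 had 12.7 CPM in replicate 1, 7.88 CPM in replicate 3 and 2.28 CPM in replicate 2, the order of the midgut marker sums in these libraries (1026, 562 and 158 CPM). Tubule marker sums had the order of Vha100-2, with 136 CPM in replicate 1, 206 CPM in replicate 3 and 256 CPM in replicate 2. Muscle marker sums had it too (1930, 2722 and 3421 CPM), as did Vha68-2 (408, 486 and 574 CPM). These are values of 3 libraries, and neither order was tested.

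Some pump genes lie close together at very unequal levels. The testis-type subunit A gene CG5075 lies 170 bases from Vha68-2 on the same strand of chromosome 2L and had 0.585 and 0.304 CPM in young midgut, where Vha68-2 had 2524 and 2639 CPM. CG5075 nevertheless passed as a fall in old midgut (log2 fold change -1.73, adjusted p = 0.0114), at 0.125 and 0.141 CPM in old midgut. The testis-type c'' gene CG7026 lies 2047 bases from VhaPPA1-1 on 3R and stayed near the floor in all libraries. The e subunit relative CG1268 rose in midgut labelled Lam-RNAi (1.45, adjusted p = 0.0182), at levels below 0.5 CPM in every library.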
